A study of Mus musculus with 6 samples.

Results

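Axon guidance ligands and receptors were examined in the olfactory epithelium of mice homozygous or heterozygous for the OMP-GFP allele. Members were chosen by gene symbol: semaphorins, plexins, neuropilins, Slit and Robo genes, ephrins and Eph receptors, netrins, Dcc and Unc5 genes, and Kirrel genes. On the array 161 probe sets naming a single gene matched, and they covered 73 of 18193 genes. The symbol pattern also took in Unc50, which encodes a Golgi protein, Unc5cl and the antisense transcript Plxna4os1, which are not guidance receptors and are named as such below. Kirrel2, a partner of Kirrel3 in olfactory axon sorting, was not analysed here.

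Each olfactory sensory neuron sends its axon to the olfactory bulb, where axons of neurons with the same odorant receptor converge. Guidance receptors on the axon read ligands that attract or repel it. Neuropilins bind secreted class 3 semaphorins and signal through plexins, Robo receptors bind Slit proteins, Eph receptors bind ephrins on neighbouring cells, and Dcc and Unc5 receptors bind netrins. Kirrel proteins are adhesion molecules that bind their own kind between like axons. In olfactory neurons the levels of Nrp1 and Plxna1 are known to follow cyclic AMP signalling, and those of Kirrel3, Epha5 and Efna5 to follow neuronal activity. The same families also guide blood vessels.

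The series held 3 arrays of homozygous and 3 of heterozygous OMP-GFP olfactory epithelium, with total RNA hybridised to the Affymetrix mouse 430 2.0 array. As background, the OMP-GFP allele puts green fluorescent protein in place of olfactory marker protein, which mature olfactory neurons make in abundance. Homozygotes therefore lack the protein, heterozygotes keep 1 intact allele, and both groups carry GFP; no wild-type group was compared. The labels give no age, sex or strain, and do not say whether an RNA came from a single animal or a pool, so p-values measure the spread between these samples, which may be technical. Precision is limited by the small number of arrays.

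Markers of the labelled tissue were present on all arrays: Cyp2g1 of sustentacular cells read 17796 to 18562 and Gng13 of olfactory neurons 9890 to 13158. The median signal per array lay between 147.9 and 163.7. 2 heterozygous libraries stood apart. At the Omp probe set 1422199_at the library labelled heterozygous 1 read 26.3, beside 5.7 to 31.3 on homozygous arrays and 4664 and 9143 in heterozygous 2 and 3, and its myelin gene Mbp read 7269 against 655 to 1038 elsewhere. The second Omp probe set, 1422200_at, read 7918.5 to 8774 on homozygous and 7968 to 8709 on heterozygous arrays. Whether these probe sets fall inside the replaced sequence is not known here, so neither settles that label. In heterozygous 3 Rbfox3, a marker of mature neurons in the brain, read 791 and Cplx1, a synaptic gene, 738, against at most 184 and 308 on the other arrays. Eomes, a marker of olfactory bulb projection neurons, was instead lowest there, at 205 against 310.5 to 510, and Reln, at 561, lay below the other heterozygous arrays. In bulk tissue, fewer cells of a type and less RNA per cell cannot be told apart.

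No axon guidance gene differed between the groups after adjustment. Of the 73 members, 55 were bright enough to be tested, meaning that their mean log2 signal was at or above the median of all probe sets. In limma fitted over 11426 genes, 0 of these 55 passed a Benjamini-Hochberg adjusted p of 0.05, and 0 genes (0%) passed in all. The adjusted p of the members lay between 0.951 and 0.9975. At an unadjusted p under 0.05 there were 6 members, 10.9% of those tested, beside a background of 5.16% of all genes. Of these 6, 5 read higher in homozygous arrays (background 2.6%) and 1 lower (background 2.56%). The 3 arrays of one group lay wholly above the other 3 for 9 members, or 16.4%, against 10.3% of all genes. The 6 non-overlapping members that were higher compare with 4.82% of all genes, and the 3 that were lower with 5.51%.

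The count of 6 depended on the libraries and probe sets used. Without the library labelled heterozygous 1 it was 9, or 16.4% beside 7.28% of all genes, and without heterozygous 1 and 3 together it was 4, or 7.27% beside 8.14% of all genes. Averaging the probe sets of a gene that passed the filter gave 4 members at an unadjusted p under 0.05, or 7.27% beside 5.17% of all genes. The same average gave 6 members without overlap, 10.9% beside 10.4%.

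Differences are given below as homozygous minus heterozygous on the scale log2(signal + 38.8), on which changes of dim genes are understated. The median member differed by 0.0092, and the median of all genes tested was -0.00041. There were 31 members higher and 24 lower in homozygous arrays, against 49.8% of all genes higher. Shifting the arrays to a common median turned this to 25 higher and 30 lower, with 34.6% of all genes higher. Without the library labelled heterozygous 1 there were 40 higher and 15 lower.

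The measurements bound how large a change could have been missed. For all 55 members the limma 95% interval, not adjusted for the number of genes, excluded a 2-fold difference on this scale. For 44 members it excluded 1.5-fold and for 9 it excluded 1.2-fold. The widest bounds were -0.89 for Sema3d and 0.80 for Kirrel3. These bounds do not cover other probe sets or a wrong label. Nrp1 probe set 1457198_at differed by 0.48, above the interval of the chosen Nrp1 probe set, which ended at 0.20. Kirrel3 differed by 0.89 with heterozygous 1 and 3 left out together.

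**Figure D1:**
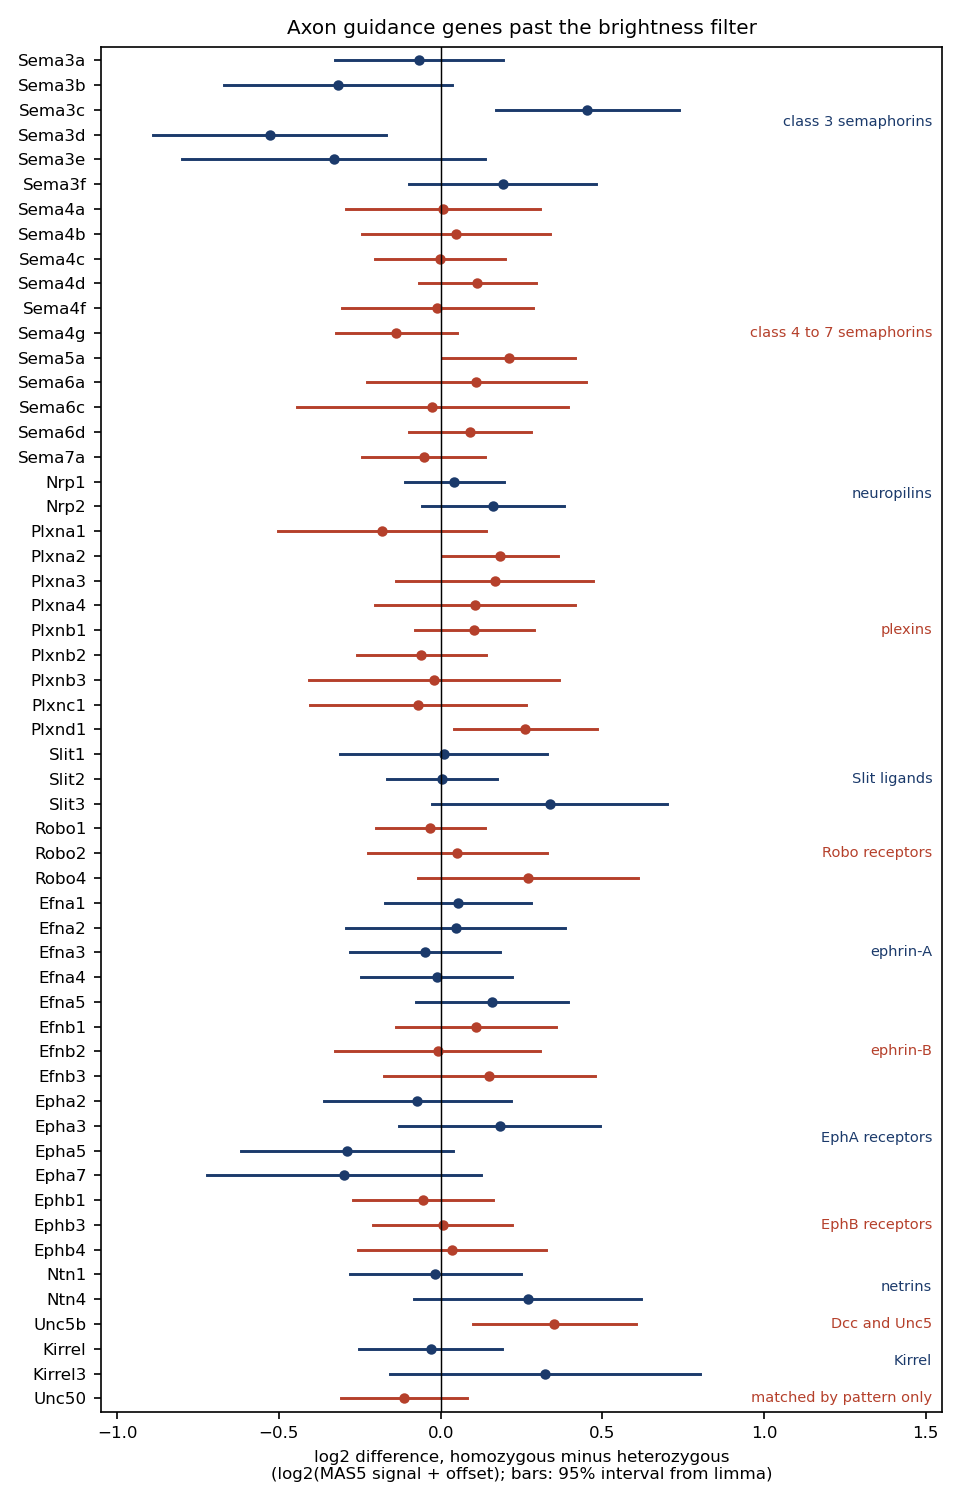
Log2 difference (x axis, homozygous minus heterozygous, log2(MAS5 signal + 38.8)) of the 55 tested genes, grouped by family in alternating colours; points are estimates and bars limma 95% intervals without adjustment for multiple genes. The intervals of Sema3c, Sema3d, Sema5a, Plxna2, Plxnd1 and Unc5b leave out 0, and all 55 lie between -0.89 and 0.80.

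Among the secreted class 3 semaphorins, Sema3c and Sema3d showed the largest differences, in opposite directions. Sema3c, which signals through both neuropilins, read 349, 414 and 372 in homozygous 1, 2 and 3. It read 249, 315.5 and 237 in heterozygous 1, 2 and 3. Every homozygous array was thus above every heterozygous one. The difference was 0.45 ± 0.13 (SE), a ratio of 1.37, with an unadjusted p of 0.0048 and an adjusted p of 0.951 in limma. Its dimmer probe set 1420696_at, below the brightness filter, differed by 0.44, close to the value of the chosen 1429348_at.

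Sema3d, another secreted repellent, read 350.5, 604 and 495 in homozygous and 637, 665 and 804.5 in heterozygous arrays. The groups did not overlap, but homozygous 1 lay well below homozygous 2. The difference was -0.53 ± 0.16 (SE), with an unadjusted p of 0.008 and an adjusted p of 0.951 in limma. It was the only member with a difference over 0.5 in size, 1 of 55 beside 0.534% of all genes. Without homozygous 1 the difference was -0.33, and at the other tested probe set, 1453148_at, it was -0.050, so the 2 probe sets of Sema3d did not show the same size.

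Sema3a, the ligand that repels Nrp1-bearing olfactory axons, read 440 ± 35.6 against 465 ± 69.04 (SD, n = 3 each, homozygous first here and below). Its difference was -0.067 with overlapping groups. It turned to 0.042 without heterozygous 3, the array with the highest Sema3a signal, 543. At the other tested Sema3a probe set, 1449865_at, the difference was 0.12. Sema3f, which repels Nrp2-bearing axons, read 661 ± 46.3 against 581 ± 125, a difference of 0.19 ± 0.13 (SE). Leaving out heterozygous 3 gave 0.077 for Sema3f, and leaving out the library labelled heterozygous 1 gave 0.35. Sema3b differed by -0.32 and Sema3e, the ligand of Plxnd1, by -0.33, both with overlapping arrays. Of the Sema3e probe sets below the filter, 1427673_a_at differed by 0.50, in the opposite direction. The others, 1425906_a_at and 1442226_at, differed by -0.25 and -0.096. Across the 6 tested class 3 genes 2 were higher and 4 lower, with a median of -0.19.

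The membrane-bound semaphorins of classes 4 to 7 varied less between groups. Of 11 tested, 6 were higher and 5 lower, between -0.14 and 0.21. Sema5a, a transmembrane semaphorin with thrombospondin repeats, read 715, 749 and 775 in homozygous and 587, 629 and 707 in heterozygous arrays. Its homozygous arrays all lay above the heterozygous ones, though homozygous 1 and heterozygous 3 were close. The difference of Sema5a was 0.21 ± 0.094 (SE), with an unadjusted p of 0.0458 and an adjusted p of 0.951 in limma, and its second tested probe set differed by 0.18. Sema4g read 616, 596 and 572 in homozygous and 682, 651 and 641 in heterozygous arrays, a difference of -0.14 ± 0.085 (SE) without overlap. Sema4d, a ligand of Plxnb1, read 1577 ± 36.5 against 1457 ± 125 (SD, n = 3 each), a difference of 0.11. Leaving out heterozygous 2 gave 0.065 for Sema4d, leaving out the library labelled heterozygous 1 gave 0.18, and its other tested probe set differed by -0.081. The GPI-anchored Sema7a differed by -0.052 and Sema6d by 0.090.

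The neuropilins, the ligand-binding receptors for class 3 semaphorins, overlapped between groups at their brightest probe sets. Nrp1 read 2636, 2841 and 2706 in homozygous and 2677, 2739 and 2529 in heterozygous arrays. The difference at this probe set was 0.042 with a 95% interval from -0.11 to 0.20, and the average of its 4 tested probe sets gave 0.21, with an adjusted p of 0.904 in limma. Nrp2 read 2682, 2098.5 and 2263 in homozygous and 2238, 2128 and 1898 in heterozygous arrays. Homozygous 1 was the highest and heterozygous 3 the lowest. The difference of Nrp2 was 0.16, with an interval from -0.057 to 0.38, and it was 0.064 without homozygous 1.

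Plexins, the signalling partners of neuropilins, were all 9 bright enough to be tested, with 5 higher and 4 lower. Plxna2 read 678, 716 and 693 in homozygous and 613, 603 and 607 in heterozygous arrays. The arrays of each group lay close together and apart from the other group: the spread of Plxna2 within groups was 0.028 (SD, log2), the smallest of the 55. The difference was 0.18 ± 0.082 (SE), with an unadjusted p of 0.0467 and an adjusted p of 0.951 in limma. Its other tested probe sets, 1451753_at and 1455037_at, differed by -0.020 and -0.082.

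Plxnd1, the receptor of Sema3e in vessels, read 539.5, 566 and 528 in homozygous and 426.5, 502.5 and 418 in heterozygous arrays. The groups did not overlap. The difference was 0.26 ± 0.10 (SE), with an unadjusted p of 0.0241 and an adjusted p of 0.951 in limma. Plxna1, which is graded opposite to Nrp1 along olfactory axons, read 981.5, 981.5 and 668 in homozygous and 906, 918.5 and 1150 in heterozygous arrays. Its difference of -0.18 came down to -0.0058 without homozygous 3. Plxna3, a partner of Nrp2, differed by 0.17, with arrays from 923 to 1424 inside the heterozygous group alone. It was 0.048 without heterozygous 2, but 0.35 when the library labelled heterozygous 1 was left out. Plxnb2, a receptor of class 4 semaphorins, differed by -0.059.

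**Figure D2:**
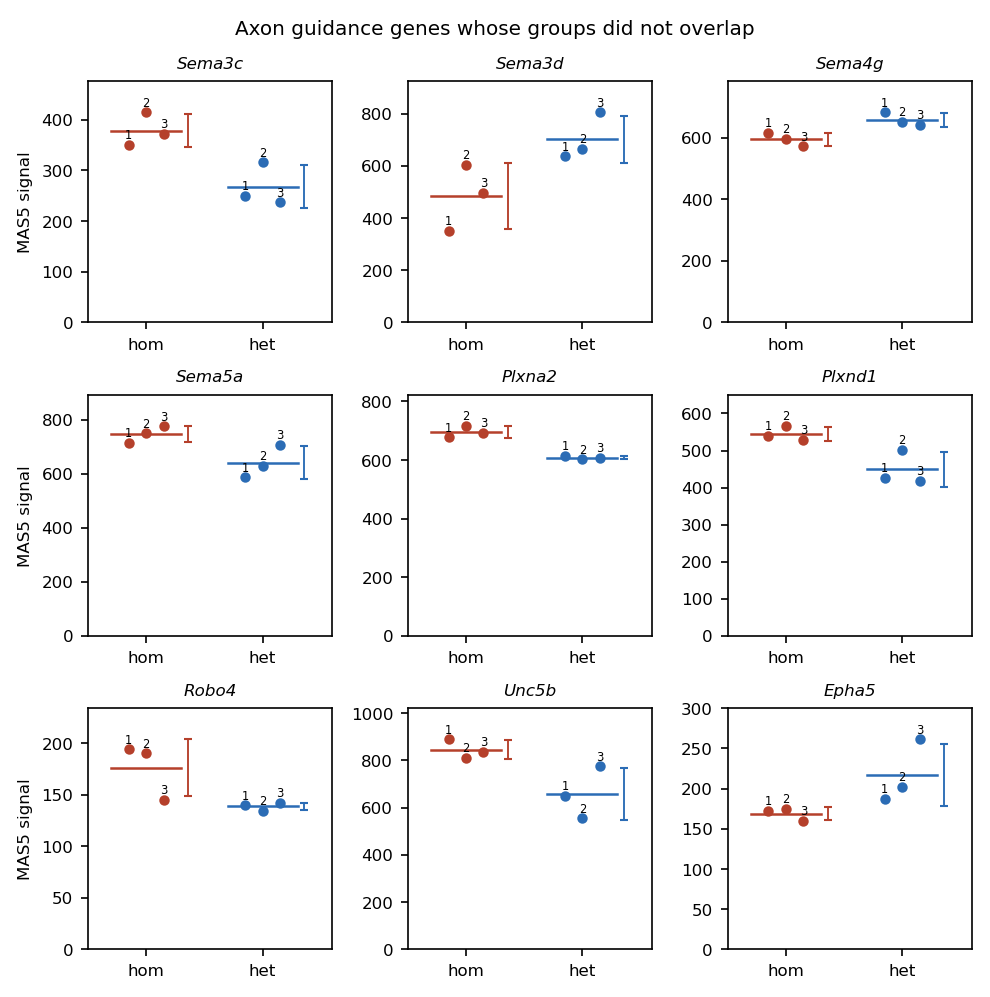
MAS5 signal (y axis, linear from 0) on each array for the 9 genes whose homozygous (hom, red) and heterozygous (het, blue) arrays did not overlap. Numbers are the replicate numbers of the titles, lines group means and bars 1 SD (n = 3 each); Sema3d, Sema4g and Epha5 were lower in homozygous arrays and the other 6 higher, none past an adjusted p of 0.05 in limma.

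Slit ligands and their Robo receptors position dorsal olfactory axons. At their chosen probe sets, Slit1, Slit2, Robo1 and Robo2 differed by less than the spread between arrays. Slit1 read 344 ± 21.4 against 346 ± 80.6, and Slit2 1534 ± 87.6 against 1528 ± 53.6 (SD, n = 3 each). Their differences were 0.0092 and 0.0044, and that of Slit2 had a 95% interval from -0.16 to 0.17. Other tested probe sets of Slit2, 1451430_at and 1458140_at, differed by -0.033 and 0.18, the last outside this interval. A dim Slit1 probe set below the filter, 1425277_at, differed by 0.94. It read 76.1 to 180 in homozygous and 13.5 to 107 in heterozygous arrays, with overlap. Slit3, another secreted Slit, read 201, 169 and 208 in homozygous and 174, 147 and 115.5 in heterozygous arrays. Homozygous 2 lay below the library labelled heterozygous 1, so the groups overlapped, with a difference of 0.34 ± 0.16 (SE) and an unadjusted p of 0.0656 in limma.

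Robo1 read 1024 ± 36.4 against 1047 ± 7.95, a difference of -0.031. Robo2, the receptor that sorts dorsal axons, read 378.5, 432 and 350 in homozygous and 367, 322 and 429 in heterozygous arrays. Its arrays were interleaved, with a difference of 0.051. Robo4, a receptor of endothelial cells, read 194, 190 and 145 in homozygous and 140, 135 and 142 in heterozygous arrays. Homozygous 3 exceeded the highest heterozygous array by little, and the difference was 0.27 ± 0.15 (SE) with an unadjusted p of 0.11 in limma.

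Ephrins differed little. Of the ephrin-A genes, all 5 were tested, and their differences ran from -0.048 to 0.16. Efna5, a membrane-anchored ligand on olfactory axons, read 1522, 1681 and 1654 in homozygous and 1709, 1409 and 1254 in heterozygous arrays. The library labelled heterozygous 1 was the highest of all 6, and without it the difference of 0.16 became 0.28. Without heterozygous 3 it was 0.058, and the other tested probe set of Efna5 differed by -0.031. Efna3, which with Efna5 shapes the glomerular map, read 1789 ± 133 and 1861 ± 267 (SD, n = 3 each). The 3 ephrin-B genes differed by -0.0095 to 0.15.

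Their receptors Epha5 and Epha7 had the most negative differences among the tested receptors. Epha5, complementary to Efna5 among olfactory axons, read 172, 175 and 160 in homozygous and 187, 202 and 261 in heterozygous arrays. The groups did not overlap, and heterozygous 3 was the highest. The difference was -0.29 ± 0.15 (SE), with an unadjusted p of 0.0782 and an adjusted p of 0.951 in limma, and the second tested probe set, 1444690_at, also differed by -0.29. Without heterozygous 3 it was -0.17. Epha7 read 184, 191 and 207 in homozygous and 204, 202 and 363 in heterozygous arrays, a difference of -0.30, with only heterozygous 3 above the rest. The EphB receptors Ephb1, Ephb3 and Ephb4 differed by -0.054, 0.0058 and 0.035.

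Of the netrin receptors only Unc5b, which mediates repulsion and is also found on vessels, passed the filter. It read 889, 812 and 837 in homozygous and 649, 555 and 775 in heterozygous arrays. All homozygous arrays were above the heterozygous ones, with heterozygous 3 nearest. The difference was 0.35 ± 0.11 (SE), a ratio of 1.28, with an unadjusted p of 0.0103 and an adjusted p of 0.951 in limma. The other tested probe set, 1453269_at, read 330.5 to 417 in homozygous and 386 to 447 in heterozygous arrays, a difference of -0.16 in the opposite direction. Of the ligands, Ntn1, the attractant of Dcc-bearing axons, read 673 ± 59.3 against 685.5 ± 111 (SD, n = 3 each), and Ntn4, a netrin of basement membranes, differed by 0.27 with overlapping arrays.

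Kirrel3, an adhesion molecule of activity-dependent axon sorting, read 615, 855 and 932 in homozygous and 734, 408 and 803 in heterozygous arrays. Heterozygous 2 was by far the lowest array. The difference was 0.32 ± 0.22 (SE), which was 0.038 without heterozygous 2 and 0.49 without heterozygous 3. The spread of Kirrel3 within groups was the largest of the 55 members, 0.41 (SD, log2). At its other tested probe set, 1452728_at, the difference was 0.098. Kirrel read 902 ± 87.0 against 923 ± 86.1 (SD, n = 3 each), a difference of -0.031.

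Some of these values differed in the same direction as markers of other cell types. All 8 measured endothelial markers were higher in homozygous arrays, 4 of them without overlap, beside 4.82% of all genes tested. Cdh5, Tek, Tie1 and Flt1 lay below the brightness filter, and Flt1 was 1 of the 4 without overlap. The summed signal of all 8 was 1626 to 1782 in homozygous and 1296 to 1403 in heterozygous arrays, and none was at 0. Plxnd1, Robo4 and Unc5b, which endothelial cells express, were higher in homozygous arrays at their chosen probe sets. The other tested Unc5b probe set differed by -0.16. Efnb2, Ephb4 and Nrp1, of families that also guide vessels, overlapped at their chosen probe sets and differed by -0.0095, 0.035 and 0.042. Among heterozygous arrays, tested endothelial markers were on average lowest in the library labelled heterozygous 1. Robo4 and Unc5b were lowest in heterozygous 2 and Plxnd1 in heterozygous 3. The part of vessel content in these differences was not tested. Stromal markers were higher for 5 of 6 and summed to 82683 to 83217 against 79312 to 81271. Among macrophage markers 5 of 6 were higher, with sums of 6049 to 6554 against 5798 to 6133. All 4 pericyte and smooth muscle markers were higher, with overlapping sums of 23091 to 24545 against 22025 to 23283. Of all genes tested, 49.8% were higher in homozygous arrays.

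Markers of younger neurons went the other way. All 7 immature neuron markers were lower in homozygous arrays, with summed signals of 33040 to 33748 against 34966 to 36400, and so were all 4 measured progenitor markers, with 7604 to 8235 against 8427 to 9558. Mature neuron markers were higher in homozygous arrays for 5 of 6. Their sums overlapped, at 52731 to 56651 against 43003 to 58190, with heterozygous 3 the lowest. The part of neuronal content in the values of the axonal receptors was not tested.

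Single guidance genes were high on the arrays that stood apart, while the share of members highest there was near that of all genes. It was 20% beside 19.1% in heterozygous 3 and 25.5% beside 21.4% in the library labelled heterozygous 1. In heterozygous 3, where Epha5 and Epha7 were highest, Chl1, a cell adhesion co-receptor for semaphorins, read 608 against 145 to 195 on the other arrays; it was chosen after its values were seen. The 7 olfactory bulb and brain markers summed to 1286 to 2586 in heterozygous and 1257.5 to 1623 in homozygous arrays, with Tbx21 near 0 at 1.4 to 11.6. In the library labelled heterozygous 1 Sema3b was highest, at 395 against 209 to 299, beside Mbp and Pmp22 at 7269 and 4899. At the other tested Sema3b probe set that library read 188, within the range of 147 to 214 on the other arrays. The 6 myelin and glial markers summed to 9424 to 19254 in heterozygous and 9709 to 10010 in homozygous arrays, and Mog was near 0 at 2.4 to 23.3. The sum in the library labelled heterozygous 1 came from Mbp and Pmp22: S100b there was 426, beside at most 418 elsewhere, and Fabp7 and Npy, at 6290 and 368.5, were the lowest of the 6 arrays. The part of these tissues in Epha5, Epha7 and Sema3b was not tested.

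**Figure D3:**
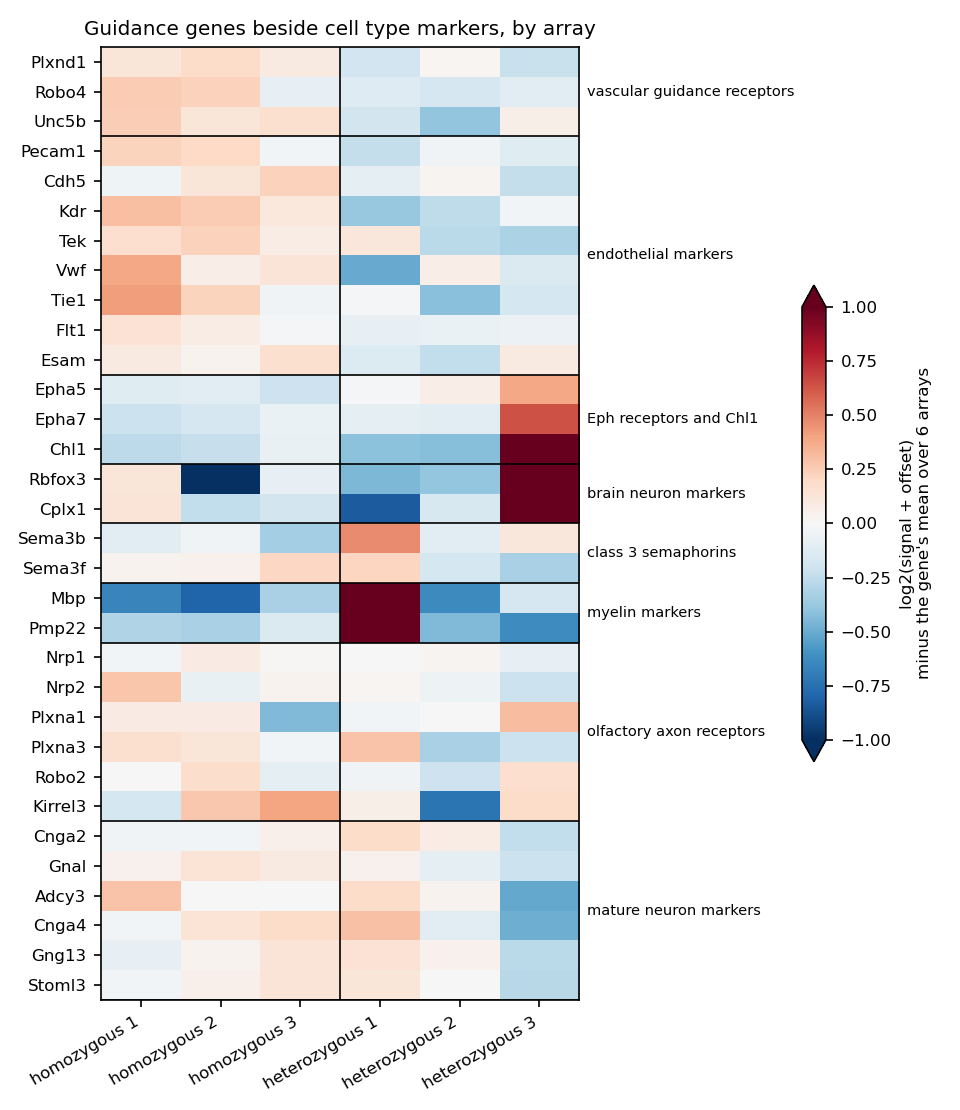
Each cell is log2(MAS5 signal + 38.8) of a gene on one array minus that gene's mean over the 6 arrays; rows are guidance genes followed by marker genes, columns the arrays, and colours end at -1 and 1. Plxnd1, Robo4 and Unc5b and the 8 endothelial markers are mostly redder on the left. Epha7, Chl1, Rbfox3 and Cplx1 are reddest in heterozygous 3, and Mbp and Pmp22 in the library labelled heterozygous 1. Only Rbfox3 and Cplx1 of the 7 brain markers are shown, and only Mbp and Pmp22 of the 6 measured myelin and glial markers. Of those left out, Eomes was lowest and Gad1 and Slc17a7 highest in heterozygous 3. Fabp7 and Npy were lowest and S100b highest in the library labelled heterozygous 1.

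Guidance genes varied more between replicate arrays than most genes did. The median spread within groups was 0.16 (SD, log2) for the 55 members and 0.12 for all genes tested. Among tested genes brighter than their median signal the medians were 0.134 for 17 members and 0.0988 for all genes, and among the dimmer ones 0.169 for 38 members and 0.146 for all genes. Differences over 0.2 in size were seen for 13 members, 23.6% beside 11.0% of all genes. Robo1, Plxna2, Sema4g, Plxnb1, Efna1 and Nrp1 had the smallest spreads, 0.028 to 0.056. Heterozygous 2 held the lowest value for 18 of the 55 members, 32.7% beside 14.7% of all genes. Heterozygous 3 held it for 16, 29.1% beside 27.5%, and the library labelled heterozygous 1 for 2, 3.64% beside 16.1%.

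Probe sets of a single gene did not always move together. For 26 members more than 1 probe set passed the filter, and for 10 of these the differences had both signs. Unc5b had the largest range, 0.51, followed by Sema3d with 0.48 and Nrp1 with 0.43. Of the 4 Nrp1 probe sets, the brightest differed by 0.042, 2 by 0.16 and 0.14, and 1457198_at by 0.48. That last probe set read 1024, 1269 and 1148 in homozygous and 811, 716 and 917 in heterozygous arrays, without overlap. Epha5, Plxna3 and Efna1 had probe sets 0.00040 to 0.0035 apart. The cause of the disagreements was not tested.

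**Figure D4:**
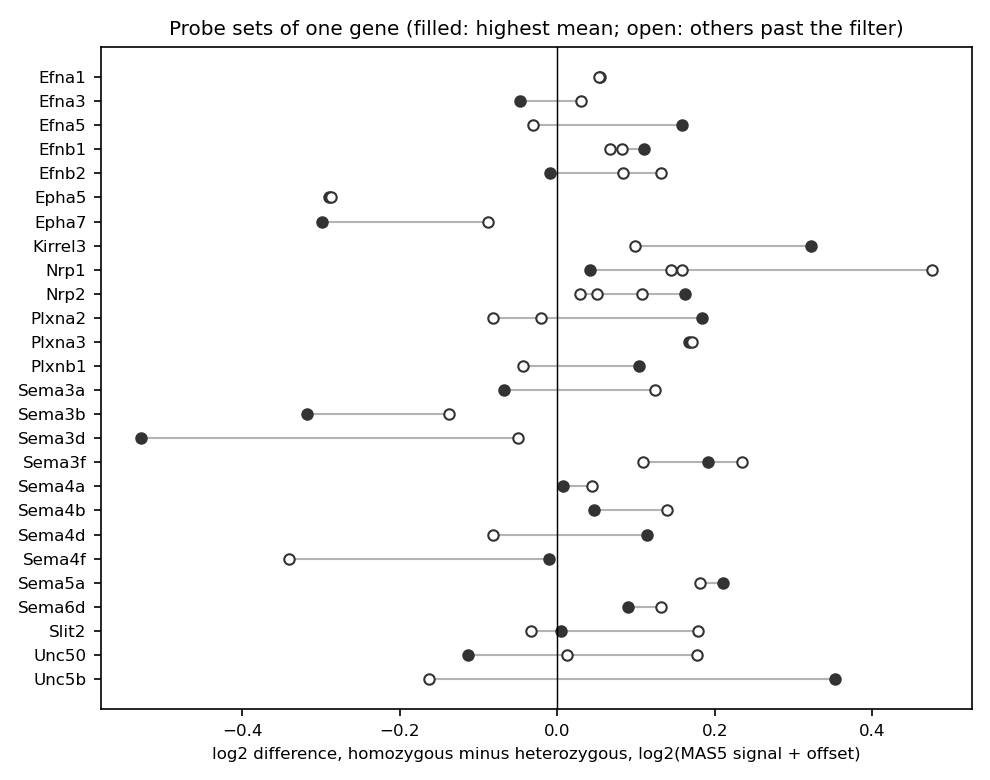
Log2 difference (x axis, homozygous minus heterozygous) of each probe set past the filter for the 26 genes with more than 1; filled points are the probe set of highest mean that stands for the gene, open points the others. Unc5b, Nrp1 and Sema3d have the widest ranges, and the probe sets of Unc5b lie on opposite sides of 0.

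Below the filter were 18 members: Dcc, Epha1, Epha4, Epha6, Epha8, Epha10, Ephb6, Ntn3, Ntn5, Robo3, Sema3g, Sema5b, Sema6b, Unc5a, Unc5c, Unc5d, Unc5cl and Plxna4os1. Their mean signals lay between 6.92 and 141, where a low signal does not show that a transcript is absent. Dcc, the netrin attraction receptor, read 64.6 to 81.2 in homozygous and 61.5 to 88.8 in heterozygous arrays. Ntn5 read 56.2, 67.7 and 101 in homozygous and 57.6, 20.9 and 22.2 in heterozygous arrays, with overlap. Sema3g, a semaphorin of arteries, read 256 in homozygous 1 and 102 to 133 on the other arrays, so that a single array stood out. Unc50, tested but no guidance receptor, differed by -0.11.

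Other genes of the guidance pathways, mostly cytoplasmic effectors and co-receptors, were counted from a list of 54. On the array 52 were named and 46 passed the filter, of which 17 were higher and 29 lower in homozygous arrays, with a median of -0.025. In limma 0 passed adjustment and 0 reached an unadjusted p under 0.05, where the background is 5.16%; 5 did not overlap between groups, against 10.3%. Srgap2, a GTPase-activating protein of Slit and Robo signalling, read 765, 747 and 605 in homozygous and 578.5, 568 and 644 in heterozygous arrays, a difference of 0.22. Chn1, a Rac inhibitor downstream of Eph receptors, read 1083, 1010 and 1044 in homozygous and 1116, 1134 and 1324 in heterozygous arrays. Its groups did not overlap and it differed by -0.18, with an unadjusted p of 0.068 in limma. The bright actin regulators Cfl1 and Rac1 differed by -0.019 and 0.088.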

How the data were processed

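The deposited table gives 1 linear signal intensity per probe set and array, made with MAS5 per the submitters' processing notes; its version is not given in the sources used here. On every array the 2% trimmed mean was 500, so no further scaling was applied. The table holds 45101 probe sets, of which 64 are controls. Probe sets naming 1 gene in the platform annotation (34945) were kept, and the probe set of highest mean log2 value stood for each gene. The scale was log2(value + 38.8), where 38.8 is the 25th percentile over the table. Genes at or above the median (the 50th percentile) of all probe sets were tested with limma 3.58.1 (R 4.3.3; lmFit, eBayes with an intensity trend; 4 residual and 6.96 prior degrees of freedom) and Benjamini-Hochberg adjustment. Detection calls were not used.

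The members, lists and alternatives were chosen with earlier results of these data known. Named members were those with olfactory roles, the lowest p and the highest mean in each family, members at an unadjusted p under 0.05 or without overlap, and those whose probe sets differed by over 0.5. From the pathway list, 2 genes were named for low p and 2 for high mean signal. Other genes were named after their values were seen. Alternatives covered the offset, scaling, filter, variance trend, replicate block, probe set choice and each array left out. The homozygous against heterozygous fit was tried on simulated data of 11426 genes with independent noise. In each run 200 genes were changed, by 1.41-, 2- or 4-fold. The fit recovered 52.5% of changes at 1.41-fold. At 2-fold this share was 92.2% and at 4-fold 100%, and 5 runs together made 30 false calls among the unchanged genes. With 200 genes changed, the adjusted threshold is easier to reach than for a lone gene. These shares therefore do not give the power to find a single member, and members varied more than most genes.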

Additional observations from a re-analysis of the deposited data

How the results depend on the processing

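No member passed adjustment under any of the 16 alternatives or at a threshold of 0.1, and no gene of the pathway list did. Over all genes the count was 1 without the library labelled heterozygous 1 (range 0 to 1 with each array left out) and 9 with heterozygous 1 and 3 left out together, where the lone heterozygous array is assumed to vary like the rest. The members' median was -0.033 with arrays shifted to a common median, beside -0.043 for all genes, and 0.066 without heterozygous 1 and 3; with each array left out it ran from -0.0048 to 0.062. Members without overlap numbered 4 under the stricter filter at the 75th percentile, which tested 25 members (16% beside 10.1% of all genes), 35 without heterozygous 1 and 3 (63.6% beside 55.7%), and 13 to 16 with each array left out; fewer arrays overlap less often, as for all genes, at 17.4% to 25.1%. Members at an unadjusted p under 0.05 in limma ranged from 3 to 9. The 3 came from the stricter filter, and were 12% of the 25 members tested beside 4.84% of all genes. With heterozygous 1 and 3 left out together, the share of members was below that of all genes. In the other settings it was above, at 7.27% to 16.4% beside 3.13% to 7.61% of all genes. These settings refit the same arrays and are not independent of each other. Of the 17 settings, the main fit included, Unc5b was at an unadjusted p under 0.05 in limma in 16 and Sema3c and Sema3d in 15. Plxnd1 was so in 11, Sema5a in 8 and Plxna2 in 6. Sema3c, Sema3d and Plxnd1 were not tested under the stricter filter. As these genes were picked in the main fit, the counts are not independent support for them. Of 422 values of named members under alternatives, 399 kept their sign. This count includes the filter, intensity trend and replicate block settings, which leave a gene's difference unchanged, so that its sign could not turn there. The replicate block gave 0 genes, 0 members and 0 pathway genes, the same as without pairing, and 5 members at an unadjusted p under 0.05. In this balanced design a block cannot change the median of 0.0092 or the 9 members without overlap, so these do not bear on pairing. Same-numbered arrays did not deviate together (correlations 0.011, -0.11 and -0.087), so the numbers were not taken as pairs.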
